A study of Mus musculus with 74 samples.

Results

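The respiratory chain of mitochondria and the ATP synthase it drives are built from many proteins encoded in the nucleus and a few encoded in mitochondrial DNA. The genes described here are the nuclear-encoded subunits, chosen by symbol (Ndufa, Ndufb, Ndufc, Ndufs and Ndufv genes, Sdha to Sdhd, Uqcr genes, Cox4 to Cox8 genes and Atp5 genes) among protein-coding genes whose count averaged 10 or more across the 8 whole DRG libraries. This rule held 80 genes, of 17616 that passed the same filter and 53379 that were counted. Placed by symbol alone, they comprised 37 subunits of complex I, 4 of complex II, 8 of complex III, 14 of complex IV and 17 of complex V. Another 4 protein-coding genes with such symbols, Cox6a2, Cox8b, Cox7b2 and Cox8c, fell under the filter and are described by their reads alone.

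RNA was sequenced from L4 dorsal root ganglia (DRG) of female mice. Whole DRG came from C57BL/6 wild type mice aged 10 to 12 weeks, 4 uninjured and 4 taken 1 day after spinal cord injury (SCI), a hemisection of the dorsal cord at thoracic level. Neurons were sorted for YFP from Thy1YFP16 mice aged 10 to 20 weeks, in which a Thy1 promoter drives YFP in a subset of sensory neurons with large axons. Each of 22 such mice gave 3 wells of about 100 cells: 6 naive mice, and 4 mice at each of 1 and 3 days after SCI and after a sciatic nerve crush (SNI), written below as SNI 1d, SNI 3d and so on. All sorted mice carried the YFP transgene, the naive ones included. The sample titles of naive replicates 5 and 6 and of injured replicates 3 and 4 begin with FACS2018, the others with FACS. These are called the second and the first set, and the titles do not say what the prefix marks. Whole DRG after SNI was not analysed here. In bulk ganglia, fewer cells of a type and less RNA per cell cannot be told apart.

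Complex I (NADH dehydrogenase) and complex II (succinate dehydrogenase) pass electrons from nutrients to ubiquinone, complex III (the cytochrome bc1 complex) passes them to cytochrome c, and complex IV (cytochrome c oxidase) passes them to oxygen. Complexes I, III and IV pump protons, and complex V (ATP synthase) uses the resulting gradient to make ATP. Sensory neurons with long axons depend on this supply for ion pumping and axonal transport. Several subunits exist as a ubiquitous form and a form typical of heart, muscle or other tissues, and the transcription factors NRF1, YY1, members of the ETS family (GABP) and estrogen-related receptors are known to bind the promoters of many of these genes.

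The promoters are shown because many members shared motifs there, which the rule did not use. RefSeq windows on GRCm38.p6, from 250 bases before to 50 after a transcription start, were matched by symbol for 64 members, with 69 windows. The NRF1 motif (GCGCA, any base, GCGC), searched on both strands, stood in 18 of the 69 windows (26.1%), against 4.6% of all 32851 windows. By gene it was in 17 of 64 members, among them Atp5c1, Atp5g3, Cox6a1, Ndufa5, Ndufb4, Sdha, Sdhd and Uqcrc1. The YY1 motif AAGATGGC was in 13% of the members' windows against 2.75% of all, and the ETS core CCGGAAG in 23.2% against 8.86%. The extended estrogen-related receptor site TCAAGGTCA was in the windows of 2 members, Atp5g3 and Sdhd (2.90% against 0.423%). A match is a description of letters in a window, not of bound protein. Below are the 120 bases that end just before the RefSeq start, 5′ to 3′ on the gene's strand, with the motif in capitals. Shown is the member of each complex with the highest level per kb among those with the NRF1 motif in that stretch. The stretches lie at chr6:24527691-24527810 (Ndufa5, minus strand), chr13:74350241-74350360 (Sdha, minus), chr5:115348959-115349078 (Cox6a1, minus) and chr2:10080433-10080552 (Atp5c1, minus). No complex III gene had the motif in the stretch. The GENCODE genes begin further upstream than these RefSeq starts. The Ndufa5 stretch therefore lies inside its GENCODE gene, and part of each of the others does.
Ndufa5: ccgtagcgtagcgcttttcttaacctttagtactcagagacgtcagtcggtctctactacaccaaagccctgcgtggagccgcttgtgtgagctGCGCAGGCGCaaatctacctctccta
Sdha: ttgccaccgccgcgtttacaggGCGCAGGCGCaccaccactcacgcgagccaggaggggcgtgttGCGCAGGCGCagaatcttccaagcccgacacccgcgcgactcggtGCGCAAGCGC
Cox6a1: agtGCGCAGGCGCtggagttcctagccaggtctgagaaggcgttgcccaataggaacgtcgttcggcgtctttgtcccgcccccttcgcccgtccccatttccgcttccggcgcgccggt
Atp5c1: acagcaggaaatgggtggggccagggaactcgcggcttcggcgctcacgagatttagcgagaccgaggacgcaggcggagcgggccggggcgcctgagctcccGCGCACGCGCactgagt
Sdha, which encodes the flavoprotein of complex II, held 3 copies of the motif in its 120 bases, and the other genes shown held 1 each.

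Each whole DRG mouse had 21959030 to 44493319 reads assigned to genes, and each sorted mouse 30518187 to 83599972 over its wells. Reads on no gene made 33.1 to 37.03% and 42.6 to 66.86% of the counted ones. Levels are CPM (the share of a library's gene reads, times 1e6), scaled by TMM between mice and by library total between wells, and levels of different genes are compared only per kb of transcript. HTSeq does not count reads that align to several places, and 45 of the 80 members share at least 1 stretch of 50 bases with a transcript of another gene. Atp5g2 shared 87.4% of its 50-base windows, Atp5l 84.8%, Cox7c 53.0% and Atp5o 50.3%, so that the levels of these subunits are uncertain and may be too low. Fold changes of the same gene between groups keep the same windows in every library.

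In uninjured whole DRG the ATP synthase genes Atp5b and Atp5a1 led. Complex V carried 42.2% of the members' summed CPM, complex I 29.4%, complex IV 13%, complex III 8.35% and complex II 7.11%. These shares are not divided by length and grow with the number of genes. Per kb, the median gene stood at 109.6 CPM in complex II, 100.7 in III, 99.2 in IV, 98.8 in V and 67.4 in I. Per kb, the highest members were Atp5b (901 CPM per kb) and Atp5a1 (542), the catalytic and the non-catalytic large subunits of the F1 head, which together made 30% of the members' CPM. Cox4i1 (446 CPM per kb), Cox8a (328), Ndufa4 (282) and Cox6a1 (280) followed. Ndufa4 was named for complex I and is counted there by symbol, but its protein is found in complex IV. The median member stood at 83.1 CPM per kb and the lowest, Ndufa4l2, at 0.689.

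The first question was whether SCI changed these genes in the whole ganglion within a day. No member passed the edgeR quasi-likelihood test at an adjusted p under 0.1, where 2.32% of all genes tested did, and 0 of 80 had an unadjusted p under 0.05, against 14.6% of all genes. DESeq2 called 0 members as well. The fitted changes nonetheless leaned one way. They lay above 0 for 71 of the 80 members, with a median log2 fold change of 0.15, against 0.01 over all genes tested. By complex the medians were 0.17 for complex I (35 of 37 above 0), 0.03 for complex II (4 of 4), 0.10 for complex III (7 of 8), 0.23 for complex IV (13 of 14) and 0.11 for complex V (12 of 17). The lean was lost without 1 mouse: uninjured replicate 1 had the lowest level of all 8 mice in 70 of the 80 members. Without it 0 members were called (2.72% of all genes), the median was -0.01, 35 members lay above 0 and 45 below, and the complex medians ran from -0.04 to 0.02.

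**Figure D1:**
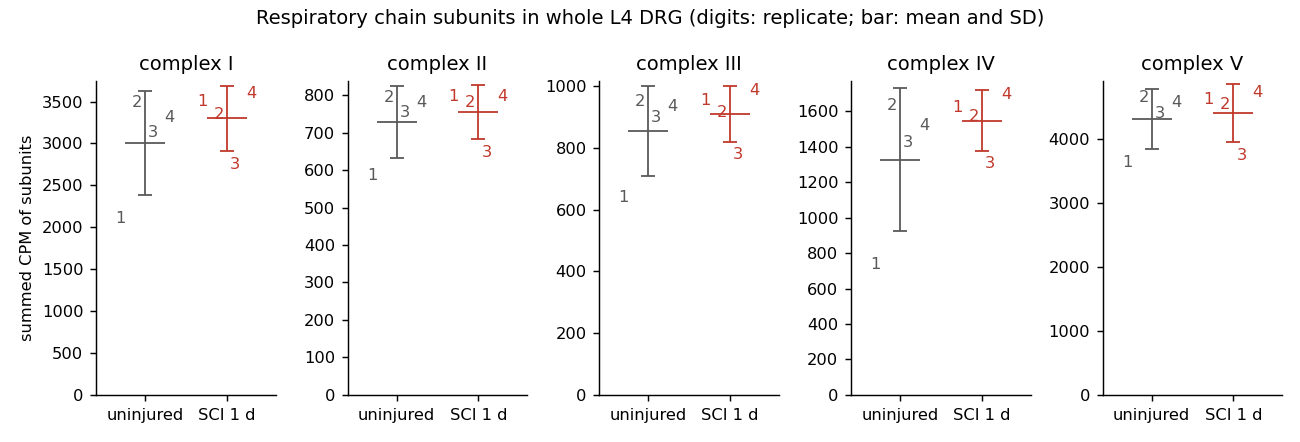
Summed CPM of the subunits of each complex in whole L4 DRG (vertical axes, from 0), with each mouse drawn as its replicate number and a bar for the mean and SD (n = 4). Uninjured replicate 1 is the lowest mouse in every panel, SCI replicate 3 the lowest of its group, and the remaining mice of both groups overlap.

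Summed over the 80 members, uninjured replicate 1 stood at 7701 CPM and the other uninjured mice at 11515, 10622 and 11128 CPM. The SCI mice stood at 11492, 11162, 9227 and 11806 CPM. The group means were 10242 ± 1733 (SD, n = 4) uninjured and 10922 ± 1160 (SD, n = 4) after SCI, so the groups overlapped and their difference was smaller than either spread. Mitochondrially encoded subunits were also lowest in uninjured replicate 1 (2487 CPM summed, against 3034 to 3695 in the other 7 mice), whereas summed glycolysis genes were not (7640 CPM there, against 6919 to 7980 elsewhere).

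The 3 members with the largest positive fits were Ndufc2, Cox7b and Ndufb4. Ndufc2, a membrane-arm subunit of complex I, read 28.1, 89.6, 76.9 and 83.2 CPM in uninjured replicates 1 to 4 and 95.2, 93.6, 72.9 and 101 CPM in the SCI mice. Its log2 fold change was 0.38 ± 0.28 (SE, adjusted p = 0.585), and 0.12 ± 0.11 without uninjured replicate 1, whose value was less than any other. Cox7b, a small complex IV subunit, read 28.1 CPM in that mouse, 83.2 to 99.2 in the other uninjured mice and 75.0 to 114 after SCI (0.36 ± 0.32, SE, adjusted p = 0.649). Ndufb4 read 4.54 CPM there, 13.5 to 15.4 in the rest and 12.3 to 17.7 after SCI (0.34 ± 0.29, SE). In all 3 genes uninjured replicate 1 was far below the other mice, which overlapped between the groups.

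The 3 lowest fits belonged to Atp5g2, Ndufs1 and Uqcrq. Ndufs1, the largest iron-sulfur subunit of complex I, read 252, 265, 266 and 278 CPM in uninjured mice and 269.9, 251, 199 and 275 CPM after SCI (log2 fold change -0.09 ± 0.10, SE, adjusted p = 0.711). SCI replicate 3 alone was low. Uqcrq, a small subunit of complex III, read 15.7, 35.0, 34.4 and 39.0 CPM in uninjured mice and 34.8, 25.2, 21.9 and 38.1 CPM after SCI, with a fit of -0.06 ± 0.26 and, without uninjured replicate 1, of -0.27 ± 0.17 (SE). Atp5g2 stayed near 1 CPM in every mouse, between 0.630 and 1.17.

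Atp5b, Ndufv1, Sdha and Uqcrc1, chosen among core subunits, had smaller errors than the median member (SE 0.19). Their transcripts had 1653 to 2900 bases. Atp5b read 1543, 1789, 1759 and 1816 CPM in uninjured mice and 1807, 1784, 1481 and 1801 CPM after SCI (log2 fold change -0.01 ± 0.08, SE). Ndufv1, which binds NADH, read 247 to 270.2 CPM uninjured and 228 to 285 after SCI (0.02 ± 0.08, SE). Sdha read 293 to 339 and 298 to 348 CPM (0.04 ± 0.07, SE), and Uqcrc1, a core protein of complex III, 287 to 337 and 304 to 356 CPM (0.04 ± 0.07, SE). The groups overlapped in all 4 genes. Uqcrfs1, the Rieske protein (0.11 ± 0.13), Sdhb (0.14 ± 0.16), Atp5c1 (0.14 ± 0.18), Cox5a (0.11 ± 0.21) and Cox5b (0.23 ± 0.26, SE) had wider errors. Their transcripts had 645 to 1363 bases.

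Only Ndufa3, an accessory complex I subunit, had groups that did not overlap, 12.5 to 29.2 CPM uninjured and 29.4 to 30.9 after SCI. That is 1 of 80 members, against 11% of all genes tested, and its test gave an adjusted p of 0.59.

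The deficit in uninjured replicate 1 differed with transcript length. Its median deviation from a gene's mean over the 8 mice, in log2(CPM + 1), was -0.99 for the 28 shortest members (371 to 680 bases), -0.80 for the 25 of middle length and -0.43 for the 27 longest (from 1110 bases). Protein-coding genes as a whole showed the same order, at -0.59 for the 224 of at most 680 bases, -0.39 for the 779 of middle length and 0.02 for the 13790 longer ones. Ndufa1, at 419 bases, read 9.36 CPM there against 23.9 to 34.1 elsewhere, and Cox7a2, at 659 bases, 33.9 against 87.6 to 117. Sdha, at 2900 bases, read 293 CPM against 298 to 348. Across the 80 genes, the log2 fold change after SCI and the length had a Spearman rho of -0.48, and -0.21 without that mouse. What set this library apart was not tested.

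**Figure D2:**
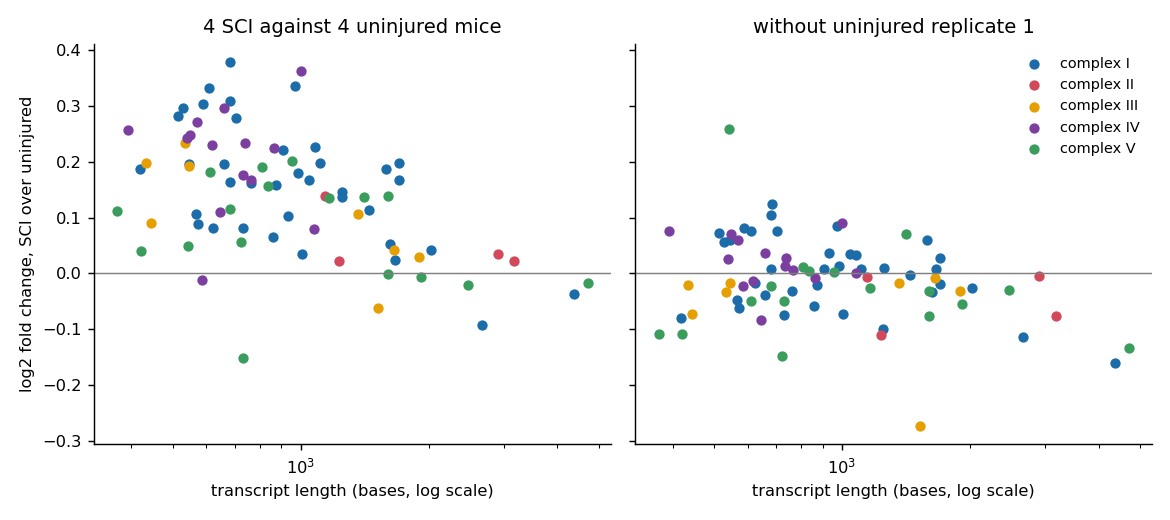
Log2 fold change after SCI (vertical axis) against transcript length in bases (horizontal log axis) for the 80 members, coloured by complex, with all 8 mice (left) and without uninjured replicate 1 (right). On the left 71 members lie above 0, with a median of 0.20 for the shortest class and 0.04 for the longest, and on the right 35 lie above 0.

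Isoforms typical of other tissues were scarce in the ganglion. Cox4i1 had 4660 to 18284 reads per mouse and Cox4i2, a form typical of lung, 10 to 46. Cox6b1 had 1289 to 7945 reads and Cox6b2, typical of testis, 12 to 41. Cox7a2 had 724 to 5029 reads and Cox7a1, the heart and muscle form, 12 to 74. Cox7a2l, a relative of Cox7a2 that joins complexes III and IV, had 1577 to 4457. The muscle forms Cox6a2 and Cox8b, both under the filter, had 22 and 14 reads in SCI replicate 1, 18 and 8 in SCI replicate 4, and at most 9 and 5 in any other mouse, where Cox6a1 had 1763 to 8727 and Cox8a 2319 to 9614. Those same SCI mice stood out in summed muscle markers, at 626 and 465 CPM against 90.1 to 157 in the rest. Without them the median over the 80 members was 0.04 and 50 lay above 0. Ndufa4l2, a paralog of Ndufa4 linked to hypoxia, had 11 to 37 reads against 1492 to 9834 for Ndufa4. Of the genes for the c ring of ATP synthase, Atp5g3 stood at 223 CPM per kb uninjured, Atp5g1 at 5.85 and Atp5g2 at 1.29. Atp5g2 is in doubt for its shared windows. The gap between Atp5g3 and Atp5g1 per kb depends on the transcripts used, of 723 and 4715 bases. Before division by length their uninjured means were 161 and 27.6 CPM.

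Other genes of energy metabolism, from lists of known genes, moved little in whole DRG. Of 13 mitochondrially encoded subunits 7 could be tested and 0 were called (median log2 fold change 0.22). Of 43 assembly factors tested 0 were called (median -0.001), and of 17 genes of the tricarboxylic acid cycle 0 (median 0.004). Of 21 genes in the glycolysis list, which also holds transporters, 1 rose, Slc2a1, the glucose transporter GLUT1 (log2 fold change 0.32 ± 0.07, SE, edgeR adjusted p = 0.0603). Of 17 regulators of mitochondrial biogenesis 1 fell, Esrrg, an estrogen-related receptor (-0.36 ± 0.09, SE, edgeR adjusted p = 0.091), a call that was lost without uninjured replicate 1. Among blood markers, 4 of 5 red cell genes rose (median 1.62), and 3 without uninjured replicate 1, when the call of Hba-a2 was lost. Mature red blood cells lack mitochondria, and the part of blood in the members' levels was not tested.

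In the sorted wells, the members' median sum was higher in wells rich in neuron markers, a shift that most abundant genes shared. Of the 66 wells, 46 held more CPM of neuron markers than of satellite glia and Schwann cell markers and are called neuronal, and 20 held more of the glial markers and are called glia-rich. Their labels name all of them as sorted neurons, and neuron markers summed to 90.8 to 20755 CPM in glia-rich and 14371 to 44808 CPM in neuronal wells. The ranges overlap: wells a and b of SNI 3d replicate 3 are glia-rich with 20755 and 17470 CPM of neuron markers, more than the 14371 CPM of a neuronal well of naive replicate 5. Summed members ranged from 12360 to 64523 CPM in neuronal wells (median 29357) and from 10806 to 21977 CPM in glia-rich wells (median 15674). In neuronal wells 74 to 79 of the 80 members had a read.

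**Figure D3:**
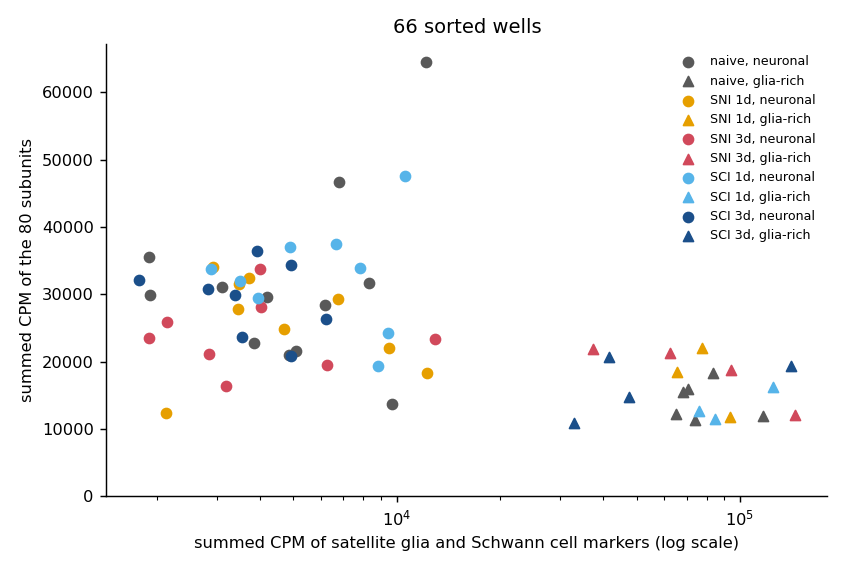
Summed CPM of the 80 members in each of 66 wells (vertical axis, from 0) against the summed CPM of satellite glia and Schwann cell markers (horizontal log axis), with circles for neuronal and triangles for glia-rich wells, coloured by group. Glia-rich wells lie between 10806 and 21977 CPM, and neuronal wells reach 64523 CPM in naive replicate 6.

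Of the mice, 12 gave wells of both kinds, and in all 12 the members' sum was higher in the neuronal wells, by a median of 1.61-fold (29229 ± 12653 against 15728 ± 3406 CPM, SD, n = 12). Complex V differed most (2.00-fold, higher in 12 of 12 mice) and complex II least (1.38-fold, 10 of 12). Single genes ranged widely. Ndufa4 was 3.60-fold higher in neuronal wells (1507 ± 724 against 346 ± 155 CPM, SD, 12 of 12 mice), Atp5a1 2.91-fold and Cox7b 3.12-fold (both in 12 of 12). Ndufa13, a complex I subunit also known as GRIM19, went the other way, at 426 ± 183 CPM in neuronal and 722 ± 289 CPM in glia-rich wells (SD, higher in 1 of 12 mice). Median differences lay above 0 for 73 of the 80 members, and 15 of them (18.8%) were higher in every mouse. Among the 1504 genes with at least the mean level of the members' first quartile, 73% had a median above 0 and 24.2% were higher in every mouse. The median of these log2 differences was 1.01 over the members and 1.22 over the abundant genes. The wells were divided by markers measured in them, and no test was run.

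The order of the subunits differed between naive neurons and whole ganglia. Over the neuronal wells of the 6 naive mice, Ndufa4 (3095 CPM per kb), Cox4i1 (2681) and Uqcr10 (1676), a small complex III subunit, were highest. Naive replicate 6 carried much of these means, and without it the same genes led at 2165, 1444 and 966 CPM per kb. Atp5b, first in whole DRG, was rank 42 of 79 in neurons and Atp5a1 rank 37, and 32 and 23 without that mouse. Both together made 5.69% of the members' CPM there, and 7.75% without it. Cox5a was at rank 22 in whole DRG and 71 in neurons, at 74.3 and 8.49 CPM (7.54 CPM without naive replicate 6). Uqcrfs1 was also lower in neurons, at 41.3 against 137 CPM. Uqcrq (724 against 31.0 CPM), Ndufa3 (557 against 24.6) and Ndufa11 (761 against 39.7) were higher, and without naive replicate 6 stood at 553, 368 and 496 CPM in neurons. Across 79 genes the levels per kb had a Spearman rho of 0.57, and 0.65 without that mouse. Library preparation differed between the 2 experiments and cannot be told apart from cell type.

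The second question was whether injury changed the members in sorted neurons. With the 3 wells of a mouse summed, 79 members were tested, Ndufa4l2 being too low, and 0 were called in any of 6 comparisons by edgeR with 2 RUVr factors (estimates of unwanted variation). All genes gave 126 calls (0.536%) at SNI 1d, 104 (0.442%) at SNI 3d, 11 (0.0468%) at SCI 1d and 12 (0.051%) at SCI 3d. Unadjusted p was under 0.05 for 1 member at SNI 1d, 15 at SNI 3d, 1 at SCI 1d and 1 at SCI 3d, where all genes gave 13.9%, 13.2%, 11.2% and 9.55%. DESeq2 with the same factors called more genes, 6.47%, 9.42%, 5.02% and 5.04% of all, and 0, 3 (Ndufa8, Uqcrb and Cox4i2, lower), 1 (Atp5g2, higher) and 1 (Atp5l, higher) members. Atp5g2 and Atp5l are the members in doubt for their shared windows, at no more than 3.26 and 49.2 CPM in any mouse. The naive mice serve as controls in all 4 comparisons.

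Summed members stood at 18016 to 38143 CPM in the 6 naive mice (median 23377). They were at 22951, 28092, 18134 and 26375 CPM at SNI 1d, and at 19464, 22578, 27674 and 21037 CPM at SNI 3d. They were at 28683, 26117, 23049 and 31406 CPM at SCI 1d, and at 31095, 26822, 21806 and 22568 CPM at SCI 3d. Every injured group lay within the naive range. Median log2 fold changes over naive were -0.14 at SNI 1d (64 of 79 members below 0), -0.26 at SNI 3d (63 below), 0.11 at SCI 1d (24 below) and -0.04 at SCI 3d (47 below), where all genes had 0.15, -0.01, 0.15 and 0.01.

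**Figure D4:**
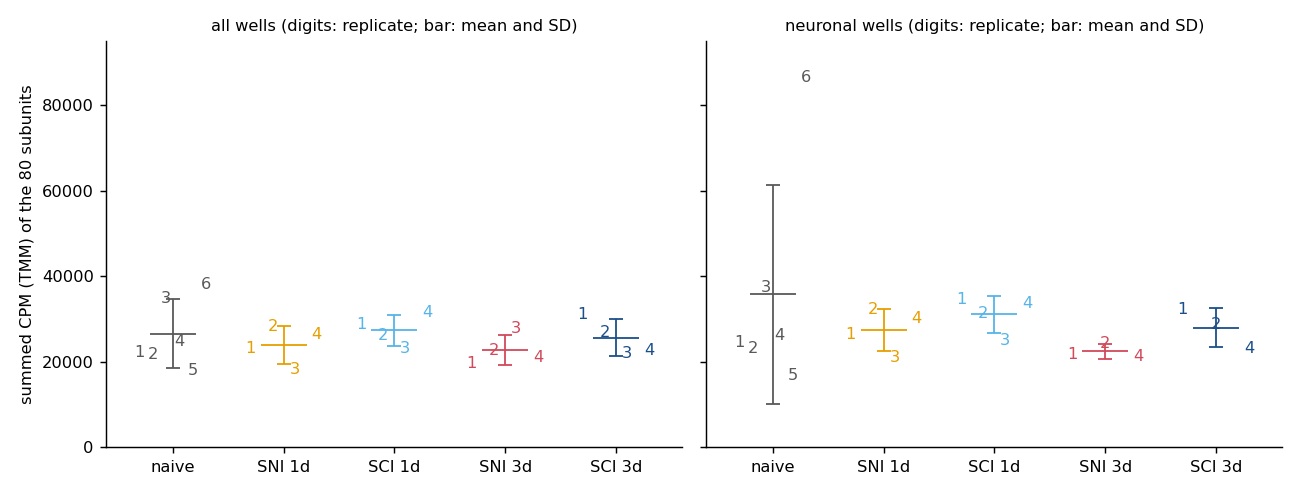
Summed CPM (TMM scale, vertical axis from 0) of the 80 members in each sorted mouse, over all wells (left) and neuronal wells (right), with mice drawn as replicate numbers and bars for the mean and SD. Over all wells each injured group lies within the naive range of 18016 to 38143 CPM, and over neuronal wells naive replicate 6 is at 86462 CPM.

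At SNI 3d, 32 of 36 members of complex I lay below 0 (median -0.33), with 6 of 8 of complex III (-0.24), 12 of 14 of complex IV (-0.16) and 12 of 17 of complex V (-0.20). No test compared the complexes. Ndufb5, a membrane-arm subunit, read 169 to 788 CPM in naive mice (median 275) and 154 to 267 CPM at SNI 3d (log2 fold change -0.73 ± 0.29, SE, adjusted p = 0.303). The core subunit Ndufv1 had a fit above 0 over all wells. It read 246 to 471 CPM in naive mice (median 375) and 391, 411, 735 and 483 CPM at SNI 3d (0.52 ± 0.24, SE, adjusted p = 0.351). Complex II had a median of 0.04, with 1 of 4 below 0. Sdha read 399 to 1516 CPM in naive mice and 406 to 1204 CPM at SNI 3d, and Atp5b 501 to 917 and 645 to 904 CPM. In each of these genes the groups overlapped, and in neuronal wells the fit to Ndufv1 was -0.13.

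Sums over neuronal wells alone gave calls among the members at SNI 3d. They left 3 SNI 3d and 3 SCI 3d mice, since replicate 3 of each had glia-rich wells only. There 13 of 79 members fell, and 0 rose, at an adjusted p under 0.1, where 0.822% of the 22620 genes tested fell and 4.99% changed either way. They were Ndufa7, Ndufa8, Ndufa9, Ndufb5, Ndufb9, Ndufb10, Ndufc2, Ndufs8 and Ndufv2 of complex I, Uqcrb and Uqcrh of complex III, and Atp5c1 and Atp5f1 of complex V, with 0 of complexes II and IV. The median over the 79 members was -0.49 with 71 below 0, against 0.33 over all genes, and 41 members had an unadjusted p under 0.05, where 21.0% of all genes did. Slc2a1 rose in the same comparison (1.87 ± 0.34, SE, edgeR adjusted p = 0.0164). Of 10 neuron markers 2 were called there, both higher. They were Tubb3 (0.77 ± 0.20, SE, edgeR adjusted p = 0.0594) and Stmn2 (1.18 ± 0.32, SE, edgeR adjusted p = 0.0676).

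**Figure D5:**
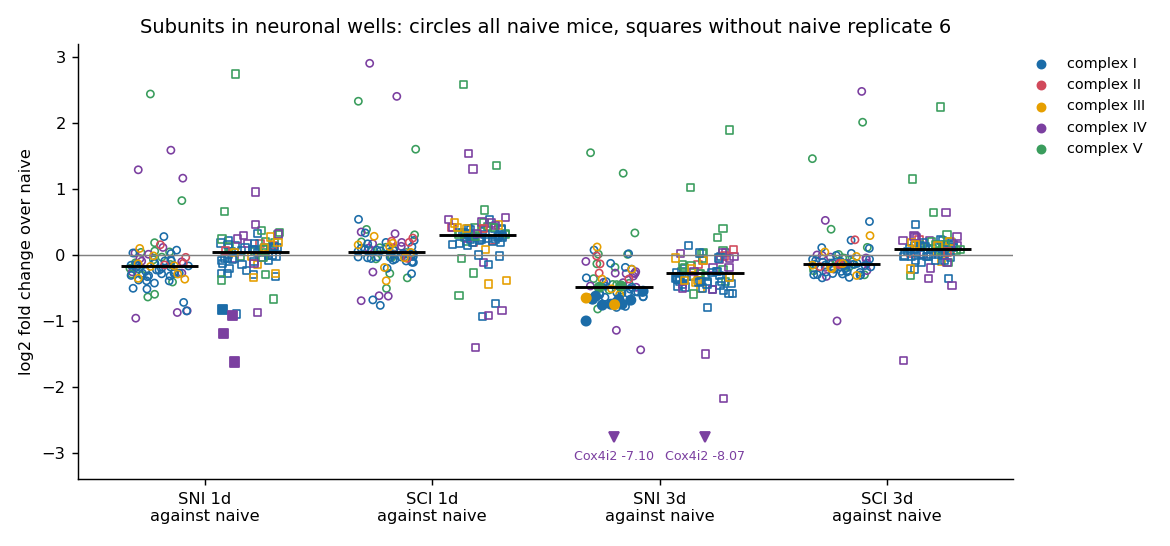
Log2 fold change over naive (vertical axis) of 79 members in neuronal wells for each injured group, with circles for the fit to all mice and squares for the fit without naive replicate 6, coloured by complex, filled where the adjusted p was under 0.1, and with a black line at the median. Cox4i2 lies under the axis at SNI 3d and is marked with its value, the median at SNI 3d is -0.49 with all mice and -0.28 without that mouse, and the 13 filled circles there have no filled square.

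All of the calls among the members were lost without naive replicate 6, SNI 3d replicate 1 or SNI 3d replicate 4. Leaving out any other naive or SNI 3d mouse gave 6 to 20 calls. In neuronal wells, summed members stood at 24501, 23076, 37372, 26112, 16757 and 86462 CPM in naive replicates 1 to 6, and at 21764, 24303 and 21064 CPM at SNI 3d. Ndufb5 read 323, 260.3, 489.9, 295, 257 and 1752 CPM in the naive mice and 206, 248 and 267 CPM at SNI 3d (-0.74 ± 0.17, SE, edgeR adjusted p = 0.0416). Ndufc2 read 339.5, 282, 521, 375, 172 and 1032 CPM and 154, 253 and 196 CPM (-0.999 ± 0.243, SE, edgeR adjusted p = 0.0493). Ndufb10 read 485, 375, 772, 463, 362 and 2817 CPM and 336, 386 and 356 CPM (-0.76 ± 0.18, SE, edgeR adjusted p = 0.0418). Naive replicate 6, with 1 neuronal well, was far above the rest in each, and the SNI 3d mice overlapped the lower naive mice. Without naive replicate 6, 0 members were called (4.02% of all genes), 9 had an unadjusted p under 0.05, the median was -0.28 and 66 of 79 lay below 0. Ndufc2 then had -0.79 ± 0.27 (SE, edgeR adjusted p = 0.14) and Ndufa8 -0.41 ± 0.15 (SE, edgeR adjusted p = 0.165). Leaving out SNI 3d replicate 1 also gave 0 calls, with a median of -0.55 and 39 members at an unadjusted p under 0.05. Leaving out SNI 3d replicate 4 gave 0, with -0.40 and 24. All-gene calls then also dropped, from 1128 to 34 and 231. Leaving out SNI 3d replicate 2 gave 7 calls (median -0.58, 752 of all genes) and naive replicate 3 gave 6 (-0.42, 1314). Without naive replicate 1, 2, 4 or 5 there were 20, 20, 16 and 15, among 1120, 1193, 1271 and 1006 of all genes. The median stayed below 0 in each of these fits. With the set (first or second) as a term in place of the RUVr factors, 0 were called and the median was -0.75. Within the first set the 2 SNI 3d mice (21764 and 24303 CPM) stood beside naive values of 23076 to 37372 CPM, and in the second set 1 SNI 3d mouse at 21064 CPM stood between the 2 naive mice. Summed neuron markers were at 37605 ± 2947 CPM (SD, n = 3) at SNI 3d and 31497 ± 7604 CPM (SD, n = 6) in naive mice, and Schwann cell markers at 4131 ± 2310 and 7446 ± 5239 CPM. Naive replicate 6 had the highest sum of large-fibre neuron markers, 13343 CPM against 846 to 6845 in the other naive mice and 3039.8 to 4809 at SNI 3d. Its sum of the muscle list was also the highest (5354 CPM, against 32.1 to 1221 and 340.2 to 694). The muscle and large-fibre lists both hold Pvalb, so these sums are not separate. Pvalb alone read 3995 CPM, scaled by library total, in the 1 neuronal well of naive replicate 6. That mouse also had the most RNA of mitochondrially encoded subunits (65515 CPM, against 15723 to 40964 and 14625 to 22111). Nociceptor markers ran from 37.3 to 45817 CPM in naive mice, highest in replicate 5, and from 116 to 339.8 CPM at SNI 3d. Their part in the result was not tested.

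In neuronal wells at SNI 1d, 0 of 79 members were called, although 6.43% of all genes were, and 6 members had an unadjusted p under 0.05 against 21.2% of all genes. The median was -0.16 with 61 below 0. Without naive replicate 6 the median was 0.05 and 4 members fell, where 1.65% of all genes fell: Cox8a (-1.62 ± 0.35, SE, edgeR adjusted p = 0.022), Cox6a1 (-1.19 ± 0.29), Cox5b (-0.91 ± 0.27) and Ndufa10 (-0.83 ± 0.22). Without naive replicate 5 these genes and Atp5d and Ndufa8 fell, with 1.33% of all genes. After SCI the neuronal wells gave 0 calls among members at either day (0.0354% of all genes at 1d and 0 at 3d), with medians of 0.04 at 1d and -0.14 at 3d, and with 3 and 1 members at an unadjusted p under 0.05, against 16% and 12.3% of all genes. Without naive replicate 6 there were still 0 calls, but the median at SCI 1d was 0.30 with 66 of 79 above 0 and 22 at an unadjusted p under 0.05, and at SCI 3d the sign turned, to 0.09 with 58 above 0.

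The third question was whether the injuries differed from each other. SNI 1d against SCI 1d gave a median log2 difference of -0.22 with 70 of 79 members below 0, and SNI 3d against SCI 3d -0.24 with 64 below, where all genes had 0.00 and -0.02. In both comparisons edgeR called 0 members and 0 of all genes, with 1 and 6 members at an unadjusted p under 0.05, against 10.1% and 8.15% of all genes. DESeq2 called 0 members at 1d (4.63% of all genes), and Atp5l and Atp5s lower at 3d (3.58%). At 1d the sums were 23888 ± 4391 CPM after SNI and 27314 ± 3570 CPM after SCI (SD, n = 4 each), and at 3d 22688 ± 3559 and 25573 ± 4293 CPM (SD, n = 4 each), differences smaller than the spread between mice. In neuronal wells the 3d difference had a median of -0.36 with 75 of 79 below 0, 36 of 36 in complex I, 0 calls and 14 members with an unadjusted p under 0.05 (7.42% of all genes). Leaving out 1 mouse moved that median between -0.26 (without SCI 3d replicate 1) and -0.56 (without SCI 3d replicate 4), and the 14 members to 31 without SCI 3d replicate 4, 8 without replicate 1, 5 without replicate 2 and 6 without SNI 3d replicate 1, with 0 calls in each. The 1d difference in neuronal wells had a median of -0.19 with 72 below 0, 0 calls (0.796% of all genes) and 3 members with an unadjusted p under 0.05 (13.5% of all genes). Ndufb5 read 206, 248 and 267 CPM at SNI 3d and 427, 388 and 268.0 CPM at SCI 3d in those wells, where the nearest mice of the 2 groups were level.

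Scarce isoforms came and went between wells. Cox4i2 had at least 20 reads in 8 of 46 neuronal and 0 of 20 glia-rich wells, and Cox7a1 in 32 and 7. Cox6b2 reached 1194 reads in 1 glia-rich well and had 0 reads in most wells, with a read in 15 neuronal and 8 glia-rich wells. Ndufa4l2 had at most 1 read in any well, in 5 neuronal wells, while Ndufa4 had 407 to 74975 reads in neuronal wells. Atp5g2 had a read in 38 neuronal wells and at least 20 in 1. With values of this kind the fits to Cox4i2 (-9.52 ± 2.67 at SNI 3d, SE, adjusted p = 0.176, with 0 CPM in all 4 mice and in 3 of 6 naive mice) depend on the fit's prior and give no fold.

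Over all wells, the other lists gave 1 call against naive, Slc2a1 at SNI 3d (1.87 ± 0.37, SE, edgeR adjusted p = 0.0532). In neuronal wells at SNI 1d, where 6.43% of all genes were called, 4 of 21 genes in the glycolysis list rose. They were the transporters Slc2a1 and Slc16a1 and the glycolytic enzymes Eno2 and Pfkp (edgeR adjusted p = 0.0134, 0.067, 0.0867 and 0.0987). Of 17 tricarboxylic acid cycle genes 1 rose (Pcx, pyruvate carboxylase), of 43 assembly factors 2 fell (Coa5 and Tmem126b) and of 17 biogenesis regulators 1 rose (Pprc1). In sorted mice the lists were not examined with a mouse left out. With the set as a term, all-gene calls there went from 1454 to 51. At SNI 3d, Ndufaf3 of the assembly factors (-0.80 ± 0.23, SE, edgeR adjusted p = 0.0814) and Tefm, a mitochondrial transcription elongation factor (-1.08 ± 0.32, SE, edgeR adjusted p = 0.0873), fell. The 7 mitochondrially encoded subunits tested had 0 calls in every comparison, with medians between -0.56 and 0.08 in neuronal wells.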

How the data were processed

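The RNA of 8 whole L4 DRG was sequenced, and that of 66 wells of sorted neurons from 22 mice. Per the submitters' processing notes the authors used cutadapt, STAR 2.5.3a, HTSeq 0.6.1 and DESeq2. The deposited values used here are raw read counts per gene, made by the authors with HTSeq, and the strand setting is not given in the sources used here. The 5 lines of each file that name no gene held 33.1 to 66.86% of counted reads and were left out. The authors' 7 comparison tables hold their fold changes and p-values and 123 per-sample columns of normalized values, none of which were used.

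Genes were named by GENCODE vM21 (GRCm38), and transcript lengths are those of the longest principal transcript. A gene was tested in whole DRG when its count averaged 10 or more, and in sorted mice when 1 mouse or more had 20 reads. Tests were made with edgeR 4.0.16 (TMM, quasi-likelihood F-test, Benjamini-Hochberg over all genes, adjusted p under 0.1) in R 4.3.3, with 2 RUVr factors for sorted mice, tested on simulated data. DESeq2 1.42.0 was an alternative. Descriptions used Python 3.11.15 with pandas 2.3.3, scipy 1.17.1 and matplotlib 3.10.9. Wells were summed per mouse. Neuronal and glia-rich wells were told apart by the summed CPM of neuron markers against that of satellite glia and Schwann cell markers. P-values measure the spread between these mice. For sorted mice they measure only the spread left after the 2 RUVr factors, which were estimated from the same mice.

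The members and lists were chosen with earlier results of these data known. Named are members past the threshold (6 in full where over 12) and the 3 highest and 3 lowest fits in whole DRG. Tissue isoforms, core subunits, Cox5a and Cox5b are also named. Of the other lists, called genes of energy metabolism and called neuron markers are named. Most called genes of the other cell type lists are not. Genes shown for other reasons (transcript length, wells, ranks, motifs, single alternatives) were chosen after their values were seen.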

Additional observations from a re-analysis of the deposited data

Results flagged for a closer look

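Among 60 groups of 4 to 6 mice checked for a mouse far from the others, 8 held one. Chance gives about 1 in 20 for separate groups. These groups overlap, since the total, its complexes and the choices of wells share mice, so that share cannot be applied to them. In neuronal wells of naive mice, replicate 6 was far above the rest for the sum of the 80 members (86462 CPM) and for complexes I (37939), II (5976), IV (15562) and V (19576 CPM), all from the same well. In whole DRG, uninjured replicate 1 was far below the rest for complex III (638 CPM), and SCI replicate 3 for complex II (648.0 CPM). Over all wells at SCI 1d, replicate 4 was far above the rest for complex II (2578 CPM).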

How the results depend on the processing

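In whole DRG, 0 members were called under each of the 16 alternatives (DESeq2, other size factors and filters, a stricter threshold, the replicate block and each mouse left out), while the number of all genes called ran from 104 to 929 around 408. With the replicate block 127 genes and 0 members were called and the median over members was 0.18. In sorted mice without the RUVr factors, 0 members were called in all 6 comparisons over all wells. All genes then gave 1 call at SCI 1d and 0 elsewhere. The replicate block in sorted mice gave 0 members called in all 6 comparisons, and 0 to 2 of all genes. The numbers share only a name: deviations of same-numbered mice in whole DRG correlated at -0.228, 0.096, -0.114 and 0.335. All-gene counts in sorted mice moved widely, from 0 to 2843 at SNI 1d (126 as reported), 0 to 2423 at SNI 3d (104), 0 to 1465 at SCI 1d (11) and 0 to 1185 at SCI 3d (12), the highest by DESeq2. Counts of members called that differed from 0 were, at SNI 3d, 3 by DESeq2 (9.42% of all genes) and 13 without glia-rich wells (4.99%). DESeq2 without those wells called 27 members at SNI 3d, among 2423 of 22620 genes. At SNI 1d it called 2 members, among 2843 of 22620 genes. DESeq2 over all wells called 1 member at SCI 1d (5.02% of all genes) and 1 at SCI 3d (5.04%). For SNI 3d against SCI 3d it called 2 (3.58%). Leaving out 1 mouse, with or without glia-rich wells, gave 0 to 20 members at SNI 3d, 0 to 6 at SNI 1d and 0 elsewhere. At SNI 3d, 3 and 1 were called over all wells without naive replicates 5 and 6, among 589 of 23428 and 711 of 23434 genes. In neuronal wells 20 were called without naive replicate 1 or 2, among 1120 of 22493 and 1193 of 22404 genes. Naive mice of the same day, 3 per day, gave 0 calls and medians of 0.23 at SNI 1d, 0.42 at SCI 1d, -0.78 at SNI 3d and -0.56 at SCI 3d, so the direction at SNI 1d depends on which naive mice are used. Atp5g2 turned to 0.054 in whole DRG without both SCI mice rich in muscle genes. With 1 mouse left out, whole DRG values ran from -0.144 to 0.009 for Ndufs1 and from -0.273 to 0.069 for Uqcrq, and Ndufs8 at SNI 3d from -0.693 to 0.101. The cause of these changes was not tested. The neuronal-well fits with a mouse left out, with DESeq2 or with the set as a term were chosen after seeing the data. So were the fit without the muscle-rich mice and the neuron levels without naive replicate 6. Precision was limited by the spread between sorted mice, with a biological coefficient of variation of 1.19, against 0.133 in whole DRG.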
